A study of Homo sapiens with 6 samples.

Results

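The annexins are a family of proteins that bind phospholipid membranes when calcium rises. They were followed here through 10 genes, ANXA1 to ANXA9 and ANXA11, taken by gene name from the 33392 genes of the expression table. All 10 had a row of their own. RNA sequencing was performed on 6 libraries of cells labelled HK-2, an immortalised epithelial line derived from the human proximal tubule. Both groups received TGF-β1, a cytokine that drives fibrosis, and were collected at 48 h. One group of 3 libraries carried a scramble siRNA and the other group of 3 an siRNA against DYRK2, a protein kinase (siDYRK2). There was no group without TGF-β1, so the comparison shows the siRNA's difference under the cytokine alone. Whether the numbered replicates came from separate cultures is not in the labels. A p-value therefore reflects only how far these libraries scatter, which may be technical.

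Each annexin folds into a core of repeats that holds calcium between the protein and acidic lipids such as phosphatidylserine, and a variable N-terminal tail that binds partners. ANXA2 joins S100A10 into a complex that gathers plasminogen and its activators on the cell surface, ANXA1 binds S100A11 and signals through formyl peptide receptors, and ANXA7 and ANXA11 have long tails that bind EF-hand proteins. Several annexins assemble at wounds of the plasma membrane. In the kidney, annexins are expressed along the tubule, and ANXA5 is widely used as a probe for exposed phosphatidylserine.

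Levels are given as FPKM, the fragments scaled by transcript length and by the library's mapped fragments, which can be compared between genes. Each difference is the siDYRK2 level less the scramble level, taken as log2(FPKM + 0.5), with a standard error (SE). This scale understates the change of low genes. The limma test covered genes whose mean reached 0.5 FPKM, and a gene was called at a Benjamini-Hochberg adjusted p below 0.05 over all 15121 genes tested. For single genes the exact two-sided permutation test of 3 against 3 libraries cannot go below p = 0.1, and every member whose groups did not overlap had that value. In bulk RNA, fewer cells expressing a gene and less RNA per cell cannot be told apart.

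The siRNA target was lower in its own libraries. DYRK2 stood at 5.84, 6.06 and 5.96 FPKM in the scramble libraries and at 1.45, 1.54 and 1.49 FPKM with siDYRK2, a log2 difference of −1.69 (SE 0.0513, limma adjusted p = 2e-06). Mitochondrial transcripts made up 26.3% to 27.8% of all FPKM. The labelled cell type was checked against its markers. Of 17 proximal tubule genes, 14 had a row and 2 reached a mean of 0.5 FPKM, and the summed level was 5.54 to 5.99 FPKM with scramble and 4.49 to 4.83 FPKM with siDYRK2. The tubule transcription factor PAX8 was at 0.18 to 0.19 FPKM with scramble and at 0.08 to 0.09 FPKM with siDYRK2. Of 9 lung epithelial genes, 6 had a row and 3, NAPSA, NKX2-1 and SFTPB, reached that mean, with sums of 30.8 to 34.08 FPKM and 28.41 to 29.67 FPKM. NKX2-1, which specifies lung and thyroid epithelium, was at 25.54 to 27.3 FPKM with scramble and at 23.07 to 23.96 FPKM with siDYRK2, so the markers go against the labelled tissue and the cells are called the cells labelled HK-2. Among 12 endothelial and immune genes only the lysosomal CD68 reached the mean, and the summed level was 11.4 to 17.8 FPKM with scramble and 17.16 to 17.97 FPKM with siDYRK2. None of 10 fibroblast and mesangial genes reached it, with sums of 0.56 to 0.65 FPKM and 0.86 to 0.96 FPKM. The part of these differences in the annexin results was not tested.

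ANXA2 has a processed pseudogene, ANXA2P2, close enough in sequence to bear on how its reads are counted. ANXA2 lies on chromosome 15 (60347134 to 60402883, minus strand) and ANXA2P2 on chromosome 9 (33624274 to 33625293, plus strand) of GRCh38. The 1020 bases of the pseudogene aligned to the ANXA2 transcript with 1004 identical bases, 16 mismatches and 0 gaps, an identity of 98.43%. The stretch from base 131 to base 220 of the ANXA2 coding sequence is shown with its counterpart because it holds 5 of those mismatches, which are in capitals.

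ANXA2: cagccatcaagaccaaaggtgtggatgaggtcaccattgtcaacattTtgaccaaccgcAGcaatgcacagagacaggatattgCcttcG
ANXA2P2: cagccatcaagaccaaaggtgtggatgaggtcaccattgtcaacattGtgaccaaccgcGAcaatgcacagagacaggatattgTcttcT

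Across the whole transcript, 18.2% of the 100-base windows of ANXA2 occurred unchanged in ANXA2P2, and 31.2% of the pseudogene's windows occurred unchanged in ANXA2. A read inside such a window fits both loci. ANXA8, on chromosome 10 (47460162 to 47484158, minus strand), has a closer copy in ANXA8L1, with 1098 of 1106 aligned bases identical (99.28%). Of the 100-base windows of ANXA8, 33.4% occurred unchanged in ANXA8L1, and 61.5% of those of ANXA8L1 occurred in ANXA8. The ANXA8L1 transcript compared had 1109 bases and no 3′ untranslated region, against 1960 bases for ANXA8, so sharing in that region could not be seen. The levels of ANXA2 and ANXA8 are uncertain because of such shared windows.

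Promoter windows of 250 bases before to 50 after the start were found in RefSeq (GRCh38.p14) for 9 of the 10 members, 13 windows in all. The bases before the start are shown for ANXA3, the member that fell most, and ANXA6, the only tested member called higher. They were chosen because they moved in opposite directions. Capitals mark matches to the words searched on both strands, GGGCGG (a GC box) or TATAAA or TGANTCA (an AP-1 word) or CACGTG (an E-box). The ANXA3 bases are chr4:78551520-78551769 on the plus strand and the ANXA6 bases are chr5:151157780-151158029 on the minus strand.

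ANXA3: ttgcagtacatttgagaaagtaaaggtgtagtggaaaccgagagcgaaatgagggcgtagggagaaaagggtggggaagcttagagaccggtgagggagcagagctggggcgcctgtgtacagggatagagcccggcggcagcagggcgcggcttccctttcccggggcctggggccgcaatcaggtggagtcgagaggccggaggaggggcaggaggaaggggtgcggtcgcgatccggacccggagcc
ANXA6: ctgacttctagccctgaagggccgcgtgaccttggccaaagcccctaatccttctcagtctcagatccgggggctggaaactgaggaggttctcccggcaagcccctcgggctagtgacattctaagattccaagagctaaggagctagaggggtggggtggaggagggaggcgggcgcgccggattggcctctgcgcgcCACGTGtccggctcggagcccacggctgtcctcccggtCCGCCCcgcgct

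The ANXA3 window held none of the words. ANXA6 has 2 windows, and the first of them, which is shown, held 1 E-box, starting 50 bases before the start, and 1 GC box, starting 12 bases before it. The second ANXA6 window held none of the words. Among 35116 RefSeq promoters of the same length, 44.95% held a GC box, 11.53% TATAAA, 7.709% the AP-1 word and 7.256% the E-box. Of the members' 13 windows, 7 held a GC box, 3 TATAAA (1 each of ANXA1, ANXA2 and ANXA11), 2 the E-box (1 each of ANXA4 and ANXA6) and 1 the AP-1 word (ANXA2). Windows of 1 gene are not independent of each other. The ANXA1 window stood at 37.67% GC and the ANXA2 window at 76.0% GC, against a median of 58.67% over all promoters. These matches describe the letters only.

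The annexins covered a wide range of levels in the cells labelled HK-2, and the order was nearly the same in both groups. ANXA5, ANXA2, ANXA1, ANXA7, ANXA3 and ANXA11 were the 6 highest, in that order, with scramble and with siDYRK2. ANXA4 came before ANXA6 with scramble, and ANXA6 before ANXA4 with siDYRK2. ANXA9 and ANXA8 were the lowest in both. Within either group the ranges of neighbours in this order did not overlap.

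**Figure D1:**
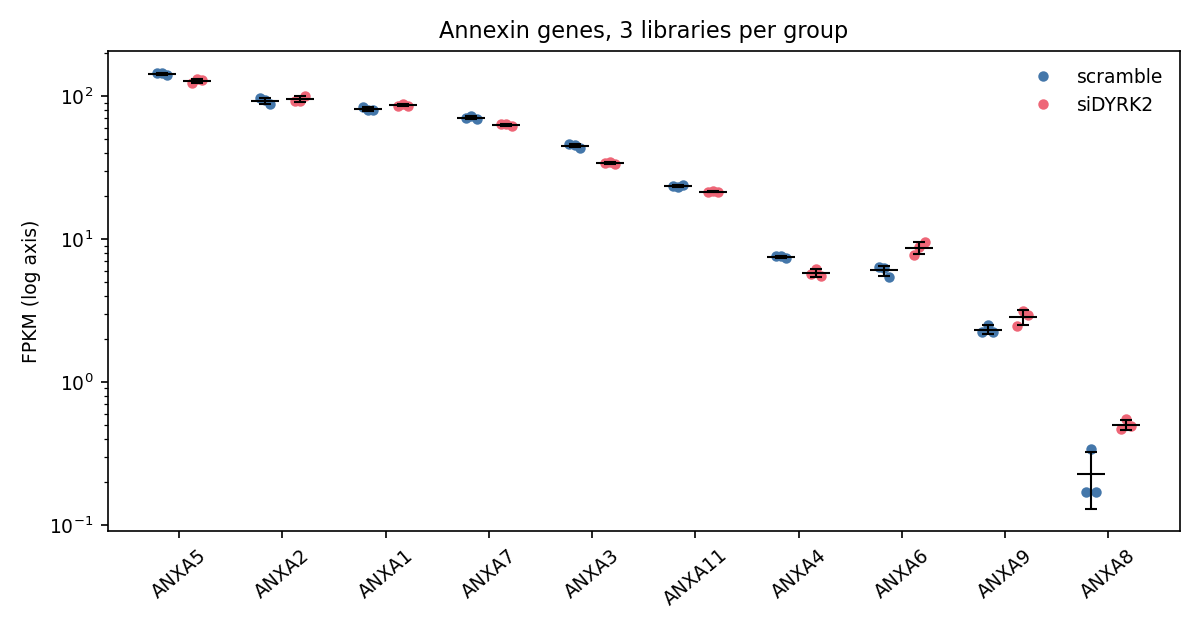
FPKM of the 10 annexin genes (log axis) in each of the 3 scramble and 3 siDYRK2 libraries, 1 point per library with bars for the mean ± SD. ANXA5 sits highest, between 123.86 and 145.7 FPKM, and ANXA8 lowest, between 0.17 and 0.55 FPKM.

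With siDYRK2, 5 annexins were called lower (ANXA3, ANXA4, ANXA5, ANXA7 and ANXA11) and 1 higher (ANXA6). Another 3 did not pass the test (ANXA1, ANXA2 and ANXA9). ANXA8 was below the filter on low values and was not among the 9 members tested. Over all 15121 genes tested, 17.9% were called lower and 20.4% higher. The median difference was −0.12 over the 9 tested members and 0.0086 over all genes tested. In absolute size the median was 0.166 for the tested members and 0.167 for all genes, so the annexins moved by about as much as the typical gene. For 7 of the 9 tested members the groups were fully apart, as they were for 51.7% of all genes tested.

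**Figure D2:**
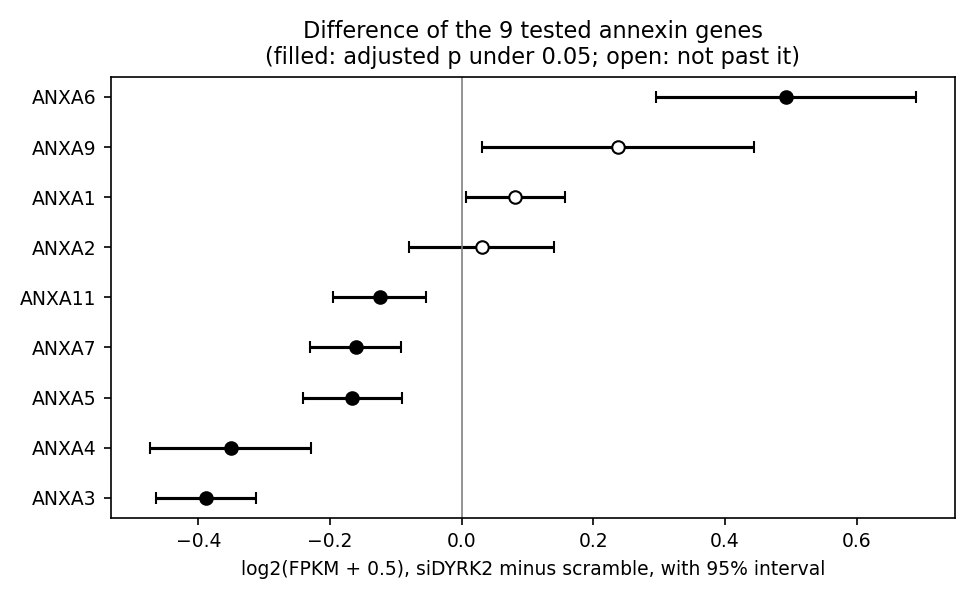
Log2 difference (siDYRK2 minus scramble) of the 9 tested annexins with its 95% interval from limma, filled points being past the adjusted p threshold of 0.05 and the vertical line marking no difference. ANXA3 lies farthest below 0 at −0.39 and ANXA6 farthest above it at 0.49.

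ANXA3 and ANXA4 had the largest decreases among the members. ANXA3, a short annexin first known as an inhibitor of phospholipase A2, lies on chromosome 4 (78551519 to 78610451, plus strand). It was at 45.95, 45.47 and 43.57 FPKM with scramble and at 34.26, 34.79 and 33.7 FPKM with siDYRK2. All 3 siDYRK2 libraries were below all 3 scramble libraries, and the mean fell by 23.9%, from 45.0 ± 1.26 to 34.2 ± 0.545 FPKM (SD, n = 3). The log2 difference was −0.39 (SE 0.0324, 95% interval −0.46 to −0.31, limma adjusted p = 0.000154). ANXA4, an epithelial annexin of apical and secretory membranes, lies on chromosome 2 (69644425 to 69827100, plus strand). Its levels were 7.55, 7.62 and 7.4 FPKM with scramble and 5.71, 6.2 and 5.48 FPKM with siDYRK2. The groups were again apart, and the mean fell by 23.0%, from 7.52 ± 0.112 to 5.80 ± 0.368 FPKM (SD, n = 3), a log2 difference of −0.35 (SE 0.0523, limma adjusted p = 0.00195). AAK1 lies across ANXA4 on the opposite strand without sharing exonic bases, and was at 3.13 to 3.67 FPKM over the 6 libraries.

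ANXA5, ANXA7 and ANXA11 fell by smaller percentages than ANXA3 and ANXA4. ANXA5, which binds phosphatidylserine and shields it from coagulation factors, lies on chromosome 4 (121667955 to 121697113, minus strand). Scramble libraries held 144.66, 145.7 and 141.41 FPKM of it and siDYRK2 libraries 123.86, 131.71 and 129.19 FPKM. Every siDYRK2 library was below every scramble library, and the mean fell by 10.9% (log2 difference −0.17, SE 0.0322, limma adjusted p = 0.0061). ANXA7, the annexin first named synexin for its part in granule fusion, lies on chromosome 10 (73375101 to 73414076, minus strand). It was at 70.03, 72.45 and 69.56 FPKM with scramble and at 63.33, 64.01 and 62.16 FPKM with siDYRK2. The groups did not overlap, and the mean fell by 10.6% (log2 difference −0.16, SE 0.0293, limma adjusted p = 0.00469). The antisense gene AL512656.1 shares 105 exonic bases with ANXA7 and was listed at 0 to 0.25 FPKM.

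ANXA11, which tethers RNA granules to lysosomes and binds the EF-hand protein PDCD6, lies on chromosome 10 (80150889 to 80205572, minus strand). Scramble libraries were at 23.51, 23.01 and 23.89 FPKM and siDYRK2 libraries at 21.44, 21.6 and 21.41 FPKM. The siDYRK2 libraries lay close together below the scramble libraries, and the mean fell by 8.46%. The log2 difference was −0.12 (SE 0.0302, limma adjusted p = 0.0153), the smallest among the 5 members called lower.

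ANXA6 was the only tested annexin called higher. It is the one member with a doubled core, its coding sequence of 2019 bases being the longest of the 10, and it is known for organising cholesterol and Ras signalling at membranes. The gene lies on chromosome 5 (151100712 to 151157882, minus strand). It was at 6.39, 6.23 and 5.45 FPKM with scramble and at 7.79, 8.78 and 9.5 FPKM with siDYRK2. The groups did not overlap, and the mean rose from 6.02 ± 0.503 to 8.69 ± 0.859 FPKM (SD, n = 3), a ratio of 1.44. The log2 difference was 0.49 (SE 0.0842, 95% interval 0.30 to 0.69, limma adjusted p = 0.00352).

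ANXA1, ANXA2 and ANXA9 did not pass the test. ANXA1, an anti-inflammatory annexin induced by glucocorticoids, lies on chromosome 9 (73151757 to 73170393, plus strand). It was at 84.45, 80.6 and 79.46 FPKM with scramble and at 85.91, 87.59 and 85.26 FPKM with siDYRK2. The groups were apart by a narrow gap, and the log2 difference of 0.08 (SE 0.0323, 95% interval 0.0059 to 0.16) had a limma adjusted p of 0.0851. Without scramble replicate 1 it was 0.11 and passed, with a limma adjusted p of 0.0405.

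ANXA2 was at 96.3, 94.53 and 88.17 FPKM with scramble and at 92.5, 92.41 and 100.14 FPKM with siDYRK2. The groups overlapped, and the log2 difference was 0.03 (SE 0.0469, 95% interval −0.08 to 0.14, limma adjusted p = 0.641). Its sign turned when the third library of either group was left out. ANXA9, an annexin with altered calcium sites, lies on chromosome 1 (150982017 to 150995634, plus strand). It was at 2.22, 2.52 and 2.24 FPKM with scramble and at 2.48, 3.11 and 2.93 FPKM with siDYRK2. One siDYRK2 library lay inside the scramble range, and the log2 difference was 0.24 (SE 0.0881, 95% interval 0.03 to 0.44, limma adjusted p = 0.0703). Without siDYRK2 replicate 1 it was 0.32 and passed, with a limma adjusted p of 0.0265.

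ANXA8, an annexin of stratified epithelia, was the lowest of the 10. It was at 0.17, 0.34 and 0.17 FPKM with scramble and at 0.47, 0.55 and 0.49 FPKM with siDYRK2. All siDYRK2 libraries were above all scramble libraries, with means of 0.227 ± 0.0981 and 0.503 ± 0.0416 FPKM (SD, n = 3). With no filter on low values its log2 difference was 0.47 (SE 0.119, limma adjusted p = 0.0475). The near-identical ANXA8L1 was at 0.08, 0.1 and 0.16 FPKM with scramble and at 0.28, 0.1 and 0.2 FPKM with siDYRK2, with groups that overlapped.

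**Figure D3:**
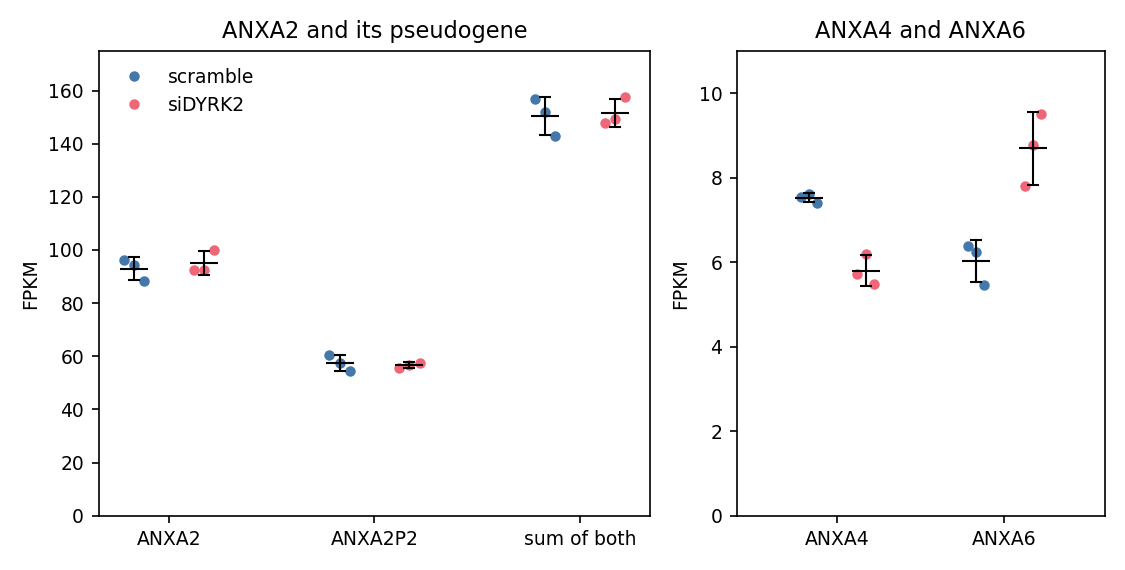
FPKM of ANXA2, its pseudogene ANXA2P2 and their sum (left), and of ANXA4 and ANXA6 (right), 1 point per library with bars for the mean ± SD of the scramble and siDYRK2 groups. ANXA2, ANXA2P2 and their sum overlap between groups, while ANXA4 and ANXA6 exchange their order.

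Of 7 other annexin loci, 5 had a row, 2 were tested and neither was called. ANXA2P2 was at 60.63, 57.38 and 54.61 FPKM with scramble and at 55.49, 56.89 and 57.6 FPKM with siDYRK2 (log2 difference −0.02, limma adjusted p = 0.729). It was listed at 0.619 ± 0.0113 of the ANXA2 level with scramble and 0.597 ± 0.0204 with siDYRK2 (SD, n = 3), ranges that overlapped. Added together, ANXA2 and ANXA2P2 came to 156.93, 151.91 and 142.78 FPKM with scramble and 147.99, 149.3 and 157.74 FPKM with siDYRK2, so the sum also overlapped. The mean of the sum was 151 FPKM with scramble and 152 FPKM with siDYRK2, above 144 and 128 FPKM for ANXA5. The ANXA2 transcript has 1676 bases and ANXA2P2 1020, so FPKM of the loci are scaled by unlike lengths. The sum is therefore not a level of ANXA2 to rank against ANXA5. ANXA2R, a receptor for ANXA2, was at 4.5, 4.65 and 2.81 FPKM with scramble and at 5.45, 5.11 and 4.97 FPKM with siDYRK2 (log2 difference 0.37, limma adjusted p = 0.113). ANXA2P1 was at 0.08 to 0.31 FPKM, and ANXA10 was listed at 0 in 5 libraries and at 0.04 FPKM in siDYRK2 replicate 3.

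The summed level of the 10 annexins was lower with siDYRK2, and its make-up differed. The sum was 481.23, 478.47 and 461.32 FPKM with scramble and 437.75, 450.75 and 450.26 FPKM with siDYRK2. The groups did not overlap, and the mean fell by 5.79%, or from 0.187% to 0.175% of all FPKM. ANXA5 made up 30.4% of the sum with scramble and 28.7% with siDYRK2. ANXA3 went from 9.50% to 7.68% and ANXA6 from 1.27% to 1.95%. ANXA1 went from 17.2% to 19.3% and ANXA2 from 19.6% to 21.3%, although neither gene was called on its own level. Shares add up to a fixed total, so each depends on the others, and no test was made of them.

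**Figure D4:**
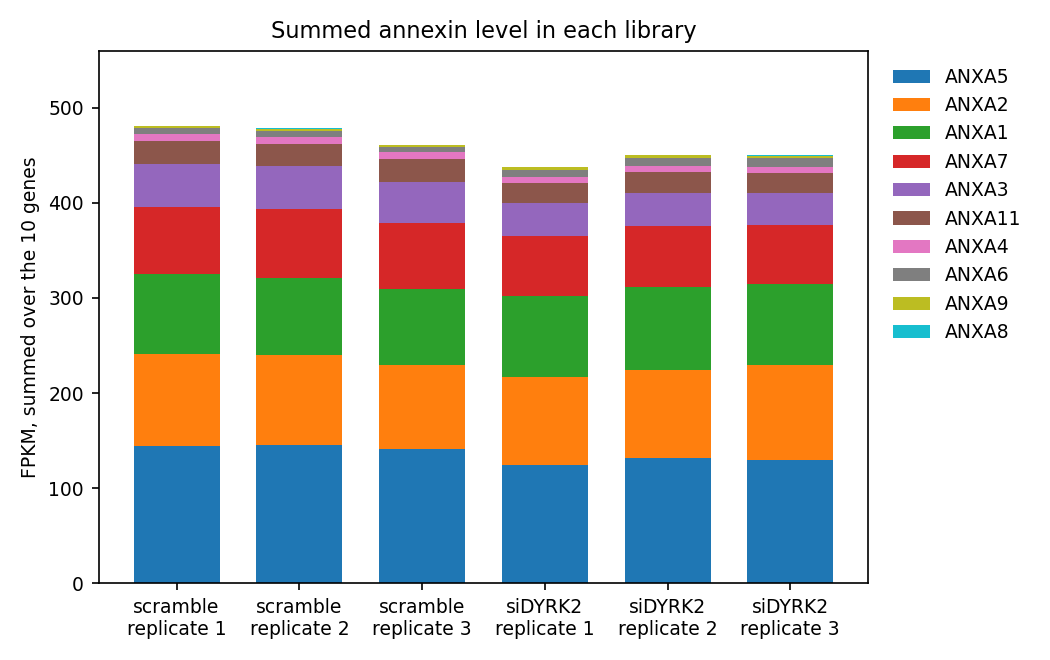
Summed FPKM of the 10 annexins in each library, stacked by gene. The 3 siDYRK2 sums lie between 437.75 and 450.75 FPKM, below the 3 scramble sums.

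Proteins that bind the annexins were taken from lists of known partners. Beside the counts of each list stands the share over all 15121 genes tested, 20.4% called higher and 17.9% lower. No test was made of any list. Of 11 S100 and EF-hand partners, 9 were tested, 0 were called higher, 2 lower and 7 did not pass. S100A6, a calcium-binding partner of several annexins, was at 182.97, 184.13 and 200.45 FPKM with scramble and at 99.63, 106.91 and 111.07 FPKM with siDYRK2. The groups were far apart (log2 difference −0.83, SE 0.0521, limma adjusted p = 4.47e-05). S100A11, the partner of ANXA1, fell from 310 ± 5.02 to 268 ± 5.67 FPKM (SD, n = 3; log2 difference −0.21, limma adjusted p = 0.00143). The ratio of S100A11 to ANXA1 was 3.81 ± 0.114 with scramble and 3.10 ± 0.0963 with siDYRK2, without overlap. S100A10, the partner of ANXA2, was at 136 ± 1.91 and 132 ± 7.31 FPKM (log2 difference −0.05, 95% interval −0.14 to 0.05, limma adjusted p = 0.435), and its ratio to ANXA2 overlapped between the groups. PDCD6 was at 10.7 ± 0.975 and 11.9 ± 1.28 FPKM (limma adjusted p = 0.271).

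Of 8 genes for ANXA1 receptors and eicosanoid enzymes, 1 was tested and it was called lower. This was PTGES, the prostaglandin E synthase, at 22.2 ± 0.919 FPKM with scramble and 15.9 ± 0.708 FPKM with siDYRK2 (SD, n = 3; log2 difference −0.47, limma adjusted p = 0.000329). The formyl peptide receptor FPR1 was at 0.02 FPKM or less in every library. FPR2 had no row under that name.

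Of 9 genes of plasminogen activation on ANXA2, 6 were tested, 1 was called higher, 2 lower and 3 did not pass. PLAU, the urokinase that cleaves plasminogen, was at 311.25, 309.63 and 297.41 FPKM with scramble and at 132.75, 127.24 and 131.55 FPKM with siDYRK2. This was a log2 difference of −1.23 (SE 0.0316, limma adjusted p = 1.48e-06), with no overlap. ENO1, an enolase that also binds plasminogen at the surface, fell from 397 ± 5.58 to 339 ± 9.89 FPKM (limma adjusted p = 0.0014). PLAT, the tissue plasminogen activator, was below the filter at 0.363 ± 0.0404 and 0.457 ± 0.0802 FPKM, and PLG, plasminogen itself, was listed at 0 in all 6 libraries.

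Of 22 genes of plasma membrane repair, 20 were tested, 3 were called higher, 9 lower and 8 did not pass, with a median difference of −0.11. Over all genes tested, 20.4% were called higher and 17.9% lower, with a median difference of 0.0086. MYOF, a ferlin that fuses vesicles with the membrane, fell from 126 ± 0.847 to 86.0 ± 1.26 FPKM (SD, n = 3; log2 difference −0.55, limma adjusted p = 1.34e-05). Subunits of the calpains, calcium-activated proteases that act at wounds, fell, with CAPN2 at −0.62 (limma adjusted p = 1.4e-05) and CAPNS1 at −0.63 (limma adjusted p = 4.66e-05) on the log2 scale. CAV1, the coat protein of caveolae, fell from 57.2 ± 3.48 to 31.0 ± 1.54 FPKM (log2 difference −0.87, limma adjusted p = 4.25e-05). The 3 called higher were CAVIN1, EHD2 and VPS4A, named because the count is small. The count called higher was 1 without the mean-variance trend, and also 1 without scramble replicate 2, siDYRK2 replicate 2 or siDYRK2 replicate 3.

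Of 17 phosphatidylserine scramblases and flippases, which set how much of the lipid bound by annexins faces outward, 15 were tested, 6 were called higher, 6 lower and 3 did not pass. The flippase ATP8B2 rose from 7.07 ± 0.150 to 9.22 ± 0.289 FPKM (SD, n = 3; log2 difference 0.36, limma adjusted p = 0.000603). PLSCR3, a scramblase of mitochondria, rose from 8.98 ± 0.36 to 11.99 ± 0.718 FPKM (log2 difference 0.40, limma adjusted p = 0.00129). ATP9A and ATP8B1, both of the flippase family, fell by 0.30 (limma adjusted p = 0.00135) and by 0.33 (limma adjusted p = 0.00156) on the log2 scale. The median difference over the 15 was −0.04, against 0.0086 over all genes tested, of which 20.4% were called higher and 17.9% lower.

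**Figure D5:**
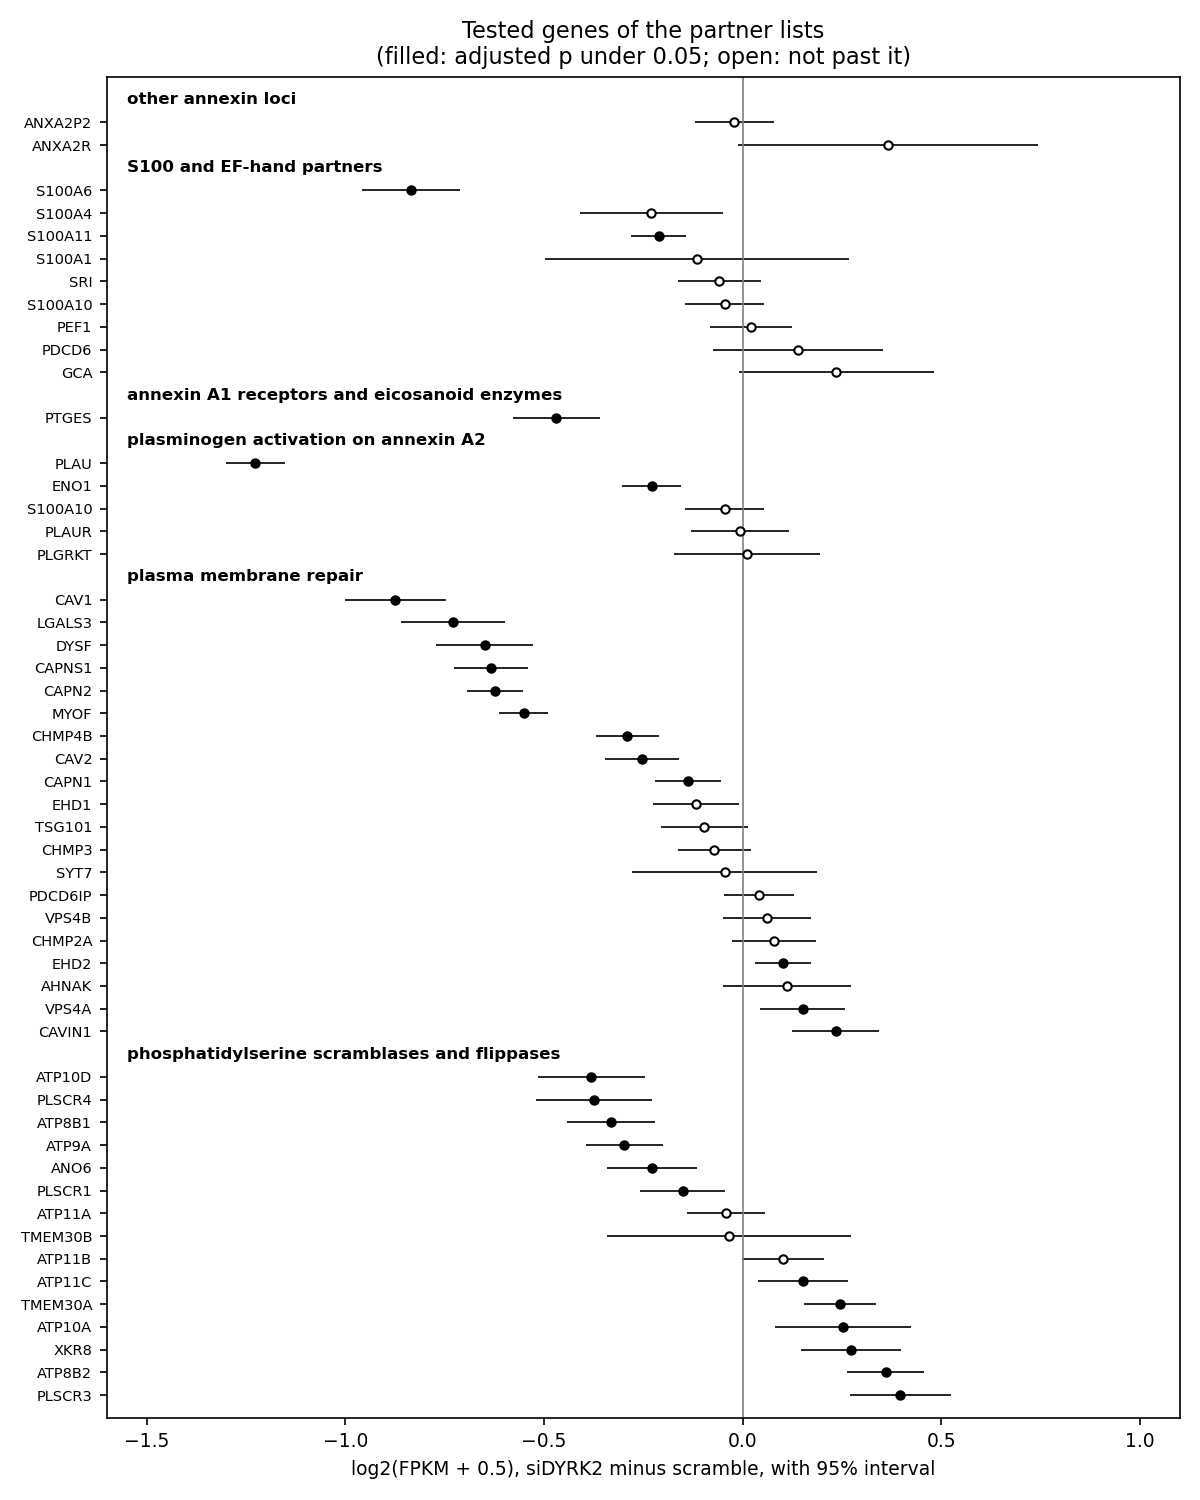
Log2 difference (siDYRK2 minus scramble) with its 95% interval for tested genes of the other annexin loci and the partner lists, 1 row per gene, filled points being past the adjusted p threshold of 0.05. PLAU lies farthest below 0 at −1.23 and PLSCR3 farthest above it at 0.40.

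The 3′ untranslated region of a single transcript per member was searched for ATCTATA and for CATCTAT. These words were chosen because they had been noted among genes that fell in these data. The transcript was taken by its rank as a principal isoform in GENCODE, and among equal ranks by the longest region. Other transcripts were not searched. Neither word was present in the searched region of any of the 10 members. Among 11626 tested genes with such a region, 14.92% held at least 1 of them, and the median length was 1120 bases. The member regions ran from 286 bases in ANXA1 to 4964 bases in ANXA11, and only those of ANXA4 (1585 bases) and ANXA11 were longer than that median. With 10 genes, mostly short regions and so low a share, the absence cannot set the members apart from other genes.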

How the data were processed

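RNA sequencing of 6 libraries (3 scramble siRNA, 3 siDYRK2, all with TGF-β1) was used as the authors deposited it, as FPKM rounded to 2 decimals, per the file headers. HISAT2, StringTie and the build GRCh38 are named, with no versions, per the submitters' processing notes. Not given in the sources used here are the annotation, the strandedness and how multiply mapped reads were handled. FPKM holds no depth: after scaling by transcript length, 28.9% to 31.2% of low values lay within 0.1 of a whole read, against 20% if spread evenly, so depth is unknown and no counting interval is given. Columns were matched to the labels by library name, and 0 other columns were present.

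The 15121 genes whose mean reached 0.5 FPKM entered limma 3.58.1 (R 4.3.3) as log2(FPKM + 0.5), with moderated statistics, a trend of variance on mean, no block and Benjamini-Hochberg adjustment at 0.05. The procedure was tested on simulated data. Single values were also compared by exact two-sided permutation tests in Python 3.11.15 with scipy 1.17.1 and pandas 2.3.3. Alternatives changed the pseudocount, the filter, the scaling, the trend and the block, and left out each library. Summing ANXA2 with ANXA2P2 was added after seeing the data.

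The members and lists were chosen with earlier results of these data known. Named genes are all members, DYRK2, the other annexin loci, up to 4 called genes of lowest adjusted p from each partner list, and S100A10, S100A11, PDCD6, FPR1, FPR2 and PLAT. Coordinates and transcripts are from GENCODE v29 on GRCh38 and promoters from RefSeq. Coding DNA is shown for ANXA2 in place of protein sequence. Some genes that this rule takes are left out of the text and figures.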

Additional observations from a re-analysis of the deposited data

How the results depend on the processing

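Over 15 alternatives, ANXA3, ANXA4, ANXA5, ANXA6, ANXA7 and DYRK2 kept their direction and their call. Summing ANXA2 with ANXA2P2, which counts among the 15, left the values of these genes untouched and so could not alter this. ANXA3 ran from −0.41 to −0.37, ANXA4 from −0.40 to −0.31, ANXA5 from −0.19 to −0.14, ANXA6 from 0.43 to 0.57 and ANXA7 from −0.17 to −0.14 on the log2 scale. The count of members called higher was 2 with no filter on low values and 2 with mitochondrial transcripts left out, the second being ANXA8. Leaving out those transcripts scales up all values, which took ANXA8 past the filter. Before that scaling its means were 0.227 FPKM with scramble and 0.503 FPKM with siDYRK2. It thus entered through the group where it was higher, and that call adds no support for a rise. The count ran from 1 to 2 when each library was left out. Leaving out each library in turn gave ANXA1 0.0637 to 0.107, ANXA9 0.179 to 0.318 and ANXA2 −0.0074 to 0.0563. ANXA2 reversed to −0.0070 without scramble replicate 3 and to −0.0074 without siDYRK2 replicate 3. The plasminogen list had 0 genes called higher at a mean of at least 2 FPKM, because fewer of its genes are then tested. The membrane repair list had 1 called higher with no filter and 1 without the mean-variance trend, and 1 to 2 when each library was left out. For these other changes the cause was not tested.

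The replicate numbers did not pair the libraries: deviations of same-numbered libraries correlated at −0.0767, 0.0243 and −0.0884. With the replicate number as a block, ANXA11 was at −0.12 with a limma adjusted p of 0.0524, and the other called members kept their calls, so 4 members were called lower. Over all genes 2495 were then called higher and 2321 lower. Not every library correlated best with the one of its own number. Depth is unknown, which limits what can be said of ANXA8 and other low genes.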
